A study of Mus musculus with 10 samples.

Results

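The provisional and elastic matrix glycoproteins examined here were set by name as 10 genes: Fn1, Tnc, Postn, Thbs1, Thbs2, Spp1, Sparc, Fbn1, Eln and Lox. Of these, 8 were matched to an array feature that the platform annotation gives to 1 gene, and all 8 lay above the level filter, among 17364 genes tested of 30142 with such a feature. Spp1, which encodes osteopontin, and Fbn1, which encodes the microfibril protein fibrillin-1, were matched to no feature and were not analysed here. Each of the 8 members had 1 such feature, so no choice between features was needed. The wound edges of 5 mice were injected with a mimic of miR-132, a synthetic RNA that acts as the mature microRNA, and those of 5 other mice with a control mimic. All 10 animals were male db/db mice (BKS(D)-Leprdb/JOrlRj, C57BL/6 background), whose leptin receptor is defective and which grow obese and diabetic, so the data hold no wounds of mice with an intact receptor. The mice were 11 weeks old on arrival in single cages and were wounded after a further week with a 4 mm punch, at 2 wounds per mouse. A dose of 0.5 nmol was injected around each wound right after wounding, and the wound edge was taken on day 6. A wound-edge biopsy holds epidermis, dermis, infiltrating leukocytes, fat and muscle, so a lower signal from fewer cells of a type and one from less RNA per cell cannot be told apart.

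After injury the clot and early granulation tissue are filled with a provisional matrix. Fibronectin, one of its adhesive proteins, gives migrating cells a hold. Tenascin-C, periostin, thrombospondins and SPARC are matricellular proteins. They tune adhesion, growth factor release and collagen assembly without being the main load-bearing scaffold. The elastic fibre is built later and more slowly, by depositing elastin on fibrillin microfibrils and crosslinking it with lysyl oxidase. The comparison asks whether local supply of miR-132 changed the transcripts of these proteins in the diabetic wound.

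The supplied RNA is shown because a microRNA selects its messenger RNAs mainly through bases 2 to 8, the seed, given in capitals. The labels do not name the arm used as the mimic, so both mature arms from RefSeq (mouse build GRCm38.p6, chromosome 11, plus strand) are shown.
mmu-miR-132-3p (chr11:75173723-75173744): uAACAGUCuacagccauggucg
mmu-miR-132-5p (chr11:75173686-75173707): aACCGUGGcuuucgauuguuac
Both arms are 22 bases long, and the transcripts' target sites were not searched here.

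None of the 8 members differed between miR-132 and control wounds by more than the spread between arrays of a group. In the limma fit over 17364 genes, 0 members passed an adjusted p of 0.05 (lowest adjusted p of 0.718, for Sparc), beside 0 genes of the whole table (percent called 0.0). At an unadjusted p under 0.05 there were again 0 members, where 8.13% of all tested genes lay under that threshold. The groups overlapped for 8 of 8 members, and they did not overlap for 0.944% of all genes. Average levels were lower with miR-132 for 6 members and higher for 2, beside 53.8% of all genes averaging lower. The median log2 difference (miR-132 minus control) was -0.11 over the 8 members and -0.02 over all tested genes. A p that misses the threshold does not show that levels were alike, so the 95% interval is given for each gene.

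**Figure D1:**
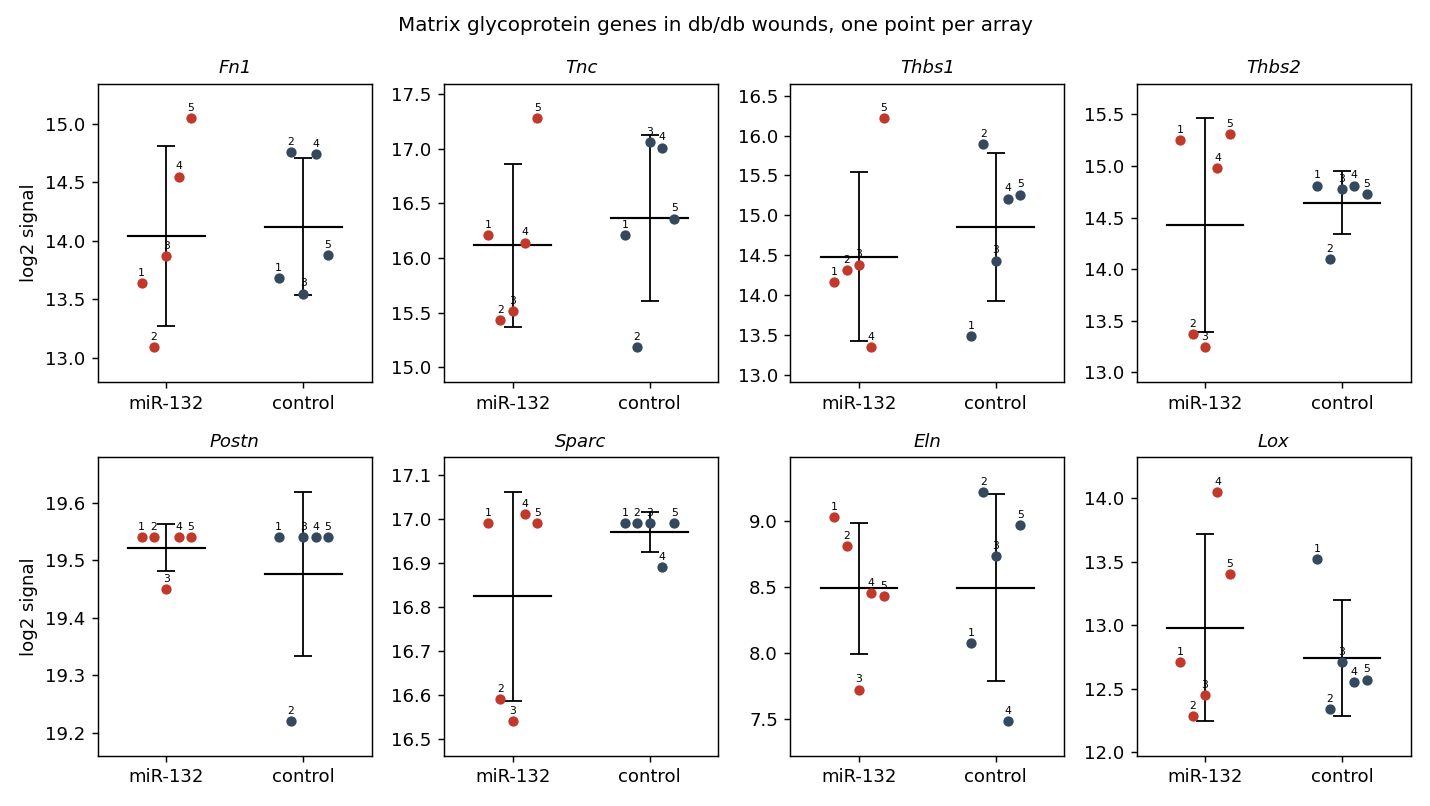
Log2 signal of the 8 members on each array, with miR-132 wounds at left and control wounds at right in each panel. Points are arrays numbered by replicate, horizontal bars are group means and error bars the SD (n = 5 each). The y axes differ between panels and do not start at 0. The groups overlap in every panel, and Postn and Sparc repeat a single value on most arrays.

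Fn1 encodes fibronectin, the adhesive glycoprotein that spans clot and granulation tissue. Its log2 signal on miR-132 arrays 1 to 5 was 13.64, 13.09, 13.87, 14.55 and 15.05, against 13.68, 14.76, 13.55, 14.74 and 13.88 on control arrays 1 to 5. The lowest and the highest of all 10 values were both in the miR-132 group, replicates 2 and 5, and the control values lay between them. The means were 14.04 ± 0.77 with miR-132 and 14.12 ± 0.59 in controls (SD, n = 5 each), a log2 difference of -0.08 ± 0.40 (SE). The 95% interval of -0.97 to 0.80 covers a ratio of 0.512 to 1.74. The difference was -0.71 ± 0.51 (SE) with the mean of the hybridisation spike-in controls as a covariate. That covariate is partly confounded with group: miR-132 replicates 3, 4 and 5 read 10.895 to 10.977, above every control (up to 10.61). Fits with it therefore cannot fully separate it from treatment, here and for the genes below. The sign of the Fn1 difference turned in 6 other fits, among them those without miR-132 replicate 2 (0.16) and after a further quantile normalization (0.06).

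Thbs1 encodes thrombospondin-1, a platelet and macrophage product that activates latent TGF-beta and restrains vessel growth. It had the widest spread of the 8 genes. Its log2 signal was 14.16, 14.31, 14.38, 13.34 and 16.22 on miR-132 arrays 1 to 5, against 13.48, 15.89, 14.43, 15.21 and 15.26 on control arrays 1 to 5. Single arrays stood at both ends of each group, replicates 4 and 5 with miR-132 and replicates 1 and 2 in controls. Highest and lowest signal differed 7.36-fold among miR-132 wounds and 5.32-fold among control wounds. Against this, the difference between group means was -0.37 ± 0.57 (SE, limma, unadjusted p of 0.530, adjusted p of 0.884), with a 95% interval of -1.65 to 0.90. Of 5 miR-132 arrays, 4 lay below the control mean. Without miR-132 replicate 5 the difference was -0.81, and without miR-132 replicate 4 it was -0.09.

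Thbs2 encodes thrombospondin-2, a fibroblast product linked to collagen fibril assembly and to slower vessel growth. Its miR-132 arrays 1 to 5 read 15.25, 13.37, 13.24, 14.98 and 15.31, against 14.81, 14.10, 14.78, 14.81 and 14.73 on control arrays 1 to 5. None of the 5 miR-132 values fell within the control range: replicates 2 and 3 lay below it, and replicates 1, 4 and 5 above it. The SD was 1.04 with miR-132 and 0.31 in controls, a ratio of 3.37. Over all tested genes the median SD was 0.232 with miR-132 and 0.172 in controls, and 68.3% of genes had the wider spread with miR-132. The equality of the Thbs2 spreads was not tested. The mean difference was -0.22 ± 0.44 (SE, 95% interval -1.20 to 0.77). It was 0.05 without miR-132 replicate 2, 0.08 without miR-132 replicate 3 and 0.04 with array weights.

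Tnc encodes tenascin-C, which is nearly absent from resting dermis and is laid down under migrating epidermis and in granulation tissue. Its log2 signal was 16.21, 15.43, 15.51, 16.14 and 17.28 on miR-132 arrays 1 to 5, against 16.21, 15.18, 17.06, 17.01 and 16.36 on control arrays 1 to 5. Control replicate 2 was the lowest of all 10 arrays and miR-132 replicate 5 the highest. Group means were 16.11 ± 0.74 with miR-132 and 16.36 ± 0.76 in controls (SD, n = 5 each). The log2 difference of -0.25 ± 0.43 (SE) had a 95% interval of -1.22 to 0.72. It stayed below 0 in all 19 alternative fits, some of which leave the difference itself unchanged. It ran from -0.55 without control replicate 2 to -0.05 with array weights, and passed the threshold in none.

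Postn and Sparc were measured on features that returned 1 repeated value on most arrays. Postn encodes periostin, which supports collagen crosslinking and myofibroblast attachment in healing skin. It read 19.54 on 8 of 10 arrays, 4 in each group, and no array was above that value. The exceptions were 19.45 on miR-132 replicate 3 and 19.22 on control replicate 2. Sparc encodes a collagen-binding matricellular protein, also called osteonectin. It read 16.99 on 6 arrays, 2 with miR-132 and 4 in controls. The other miR-132 arrays, replicates 2, 3 and 4, read 16.59, 16.54 and 17.01, and control replicate 4 read 16.89.

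Such repeats were common among bright features. The same value (to 2 decimals) stood on 8 or more arrays for 71.6% of 345 tested genes with a mean above 18, for 5.53% of 235 genes with a mean above 16 to 18 and for 0.193% of 16037 genes with a mean of 12 or less. On 6 or more arrays, the share was 18.7% among genes with a mean above 16 to 18. Differences of Postn and Sparc are therefore differences between mostly tied values, and the narrow intervals that follow rest on those ties. The deposited table has an upper limit of 19.93, which neither gene reached. Whether the repeated values are upper bounds of their own features was not tested. Postn had a log2 difference of 0.05 ± 0.06 (SE, 95% interval -0.09 to 0.18), and without control replicate 2 it was -0.02. Sparc had a difference of -0.15 ± 0.10 (SE, 95% interval -0.37 to 0.08), and after quantile normalization it was 0.0057. For Sparc the lower mean with miR-132 came from replicates 2 and 3, the same arrays on which Thbs2 was lowest.

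Eln encodes tropoelastin, the soluble monomer of elastin. Its log2 signal was 9.03, 8.81, 7.72, 8.45 and 8.43 on miR-132 arrays 1 to 5, against 8.07, 9.22, 8.73, 7.48 and 8.97 on control arrays 1 to 5. All 5 miR-132 values lay within the control range. The means were nearly equal, at 8.49 ± 0.50 with miR-132 and 8.49 ± 0.71 in controls (SD, n = 5 each), a log2 difference of -0.006 ± 0.36 (SE). The 95% interval was -0.81 to 0.80, a ratio of 0.571 to 1.74. The sign of so small a value turned in several fits, with a range of -0.26 (without control replicate 4) to 0.198 (hybridisation spike-in controls as a covariate).

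Lox encodes lysyl oxidase, the copper enzyme that crosslinks elastin and collagen. Its log2 signal was 12.71, 12.28, 12.45, 14.05 and 13.40 on miR-132 arrays 1 to 5, against 13.52, 12.34, 12.71, 12.55 and 12.57 on control arrays 1 to 5. Replicates 4 and 5 with miR-132 and replicate 1 in controls stood above the other 7 arrays. Among the 8 members Lox had the highest average ratio, 1.18 (log2 difference 0.24 ± 0.36 SE, 95% interval -0.56 to 1.04, limma adjusted p of 0.881). Without miR-132 replicate 4 the difference was -0.03, and with the spike-in covariate it was -0.14.

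**Figure D2:**
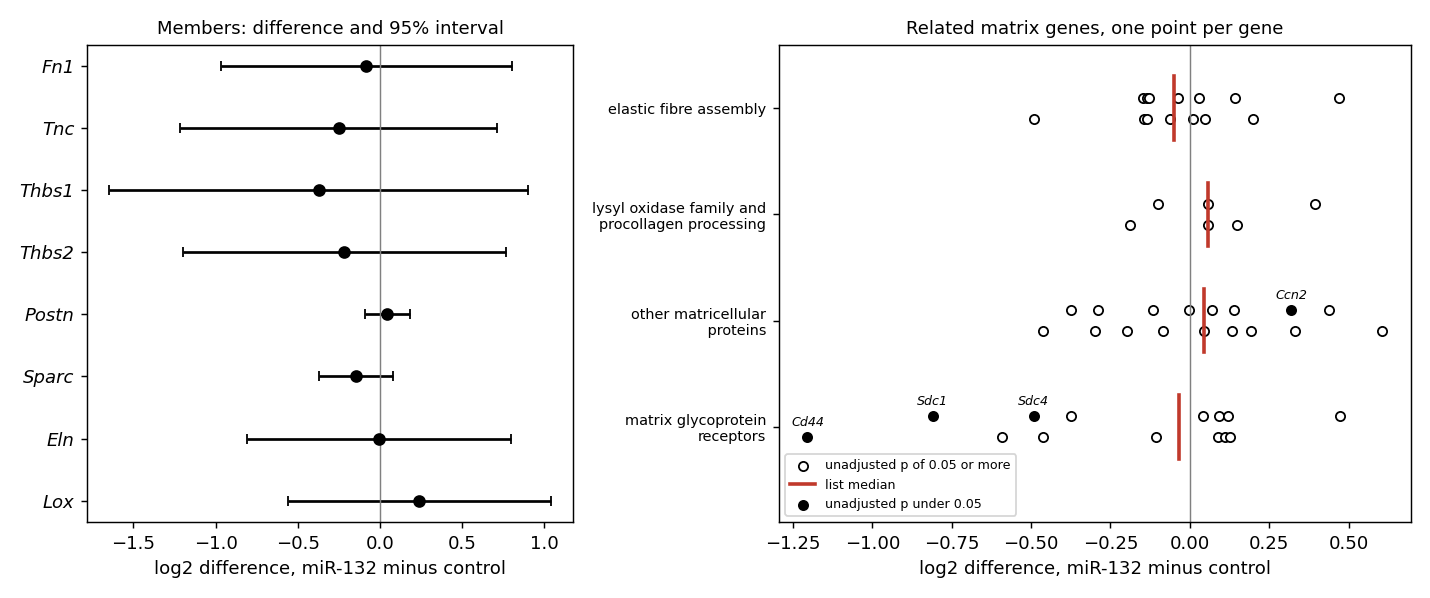
Left, log2 difference (miR-132 minus control) of each member with its 95% interval from limma, all of which include 0. Right, the same difference for genes of the 4 related lists, with 1 point per gene, filled where the unadjusted p was under 0.05, and a red bar at the list median. Cd44, Sdc1 and Sdc4 are the filled points below 0 and Ccn2 is the filled point above 0.

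Compared with the distance between groups, the spread between arrays of a group was large. The parts of animal, biopsy and hybridisation in that spread were not tested. The group difference was 0.00978 to 0.855 of the pooled SD over the 8 members. The pooled SD of the 6 members without repeated values ran from 0.612 for Lox to 0.994 for Thbs1, against a median of 0.217 over all tested genes. Thbs1 varied more than 98.5% of tested genes, Thbs2 more than 96.1%, Tnc more than 96.0%, Fn1 more than 94.5%, and Eln and Lox each more than 92.4%. Most tested genes were dimmer than these members apart from Eln, with a mean of 12 or less for 16037 of 17364. Spread was not compared among genes of like level, so these ranks do not set the members apart from other bright genes. The SD was wider with miR-132 than in controls for 5 of the 8 members, beside 68.3% of all tested genes.

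**Figure D3:**
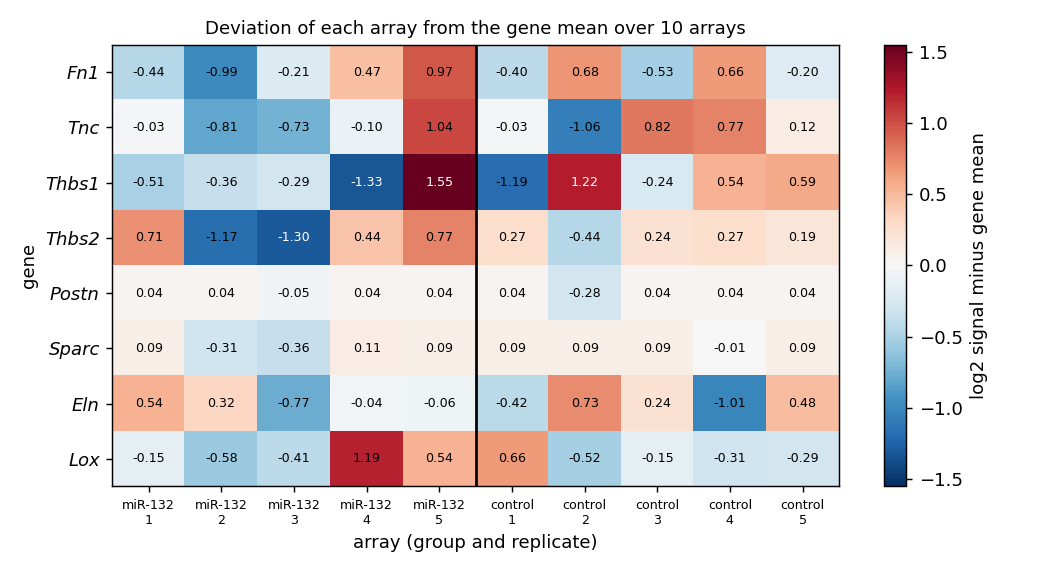
Deviation of each array's log2 signal from the gene's mean over 10 arrays, with miR-132 replicates at left of the black line and control replicates at right. Rows are the 8 members. Replicate 5 of the miR-132 group is high for Fn1, Tnc, Thbs1 and Thbs2, and no row separates the groups.

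The members did not vary as 1 block. The mean over the 8 members was 14.69, 14.18, 14.14, 14.76 and 15.28 on miR-132 arrays 1 to 5, against 14.54, 14.71, 14.72, 14.78 and 14.79 on control arrays 1 to 5. The miR-132 group held the highest array (replicate 5) and the lowest arrays (replicates 2 and 3). Replicate 5 with miR-132 was the highest of all arrays for 4 members, Fn1, Tnc, Thbs1 and Thbs2. On control replicate 2, Thbs1 (15.89), Fn1 (14.76) and Eln (9.22) were each the highest of the control values, while Tnc (15.18), Thbs2 (14.10), Postn (19.22) and Lox (12.34) were each the lowest. The difference over the mean of the 8 members was -0.10 and lay between -0.268 and 0.04 in the 19 alternatives, so its sign was not settled.

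Among the 6 members without repeated values, 15 pairs were correlated over the 10 arrays after subtracting each group's mean, with exact permutation within groups. Tnc and Thbs2 were the closest pair, with a Pearson r of 0.736 (exact permutation p of 0.0025, adjusted over 15 pairs 0.0375) and a Spearman rho of 0.748 (exact permutation p of 0.0146, adjusted 0.219). The rank measure thus did not pass adjustment. Without the 2 arrays farthest from the median of Tnc the r was 0.68, and without the 2 farthest on Thbs2 it was 0.691. No other pair passed on either measure. Thbs1 and Thbs2, paralogs with the same domain plan, had an r of 0.03, and Fn1 and Thbs1 one of 0.57 (exact permutation p of 0.116, adjusted 0.708), and an r of 0.05 without the 2 arrays farthest on Fn1.

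**Figure D4:**
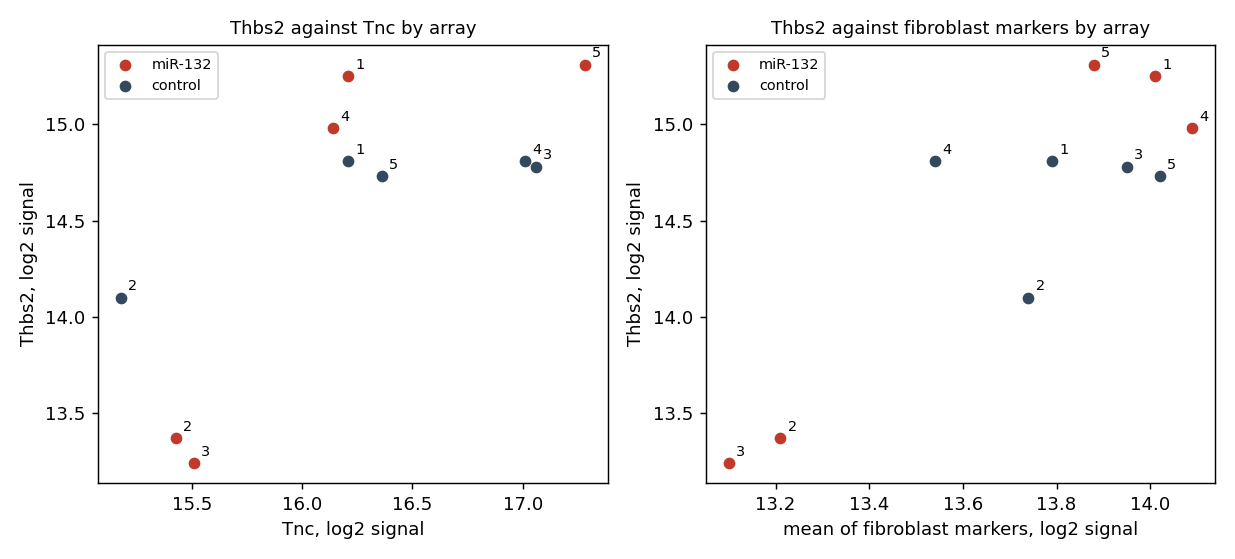
Log2 signal of Thbs2 by array against Tnc (left) and against the mean of 9 fibroblast markers (right), with miR-132 wounds in red and control wounds in dark blue, numbered by replicate. Replicates 2 and 3 of the miR-132 group and control replicate 2 lie low on both axes at left. At right, miR-132 replicates 2 and 3 lie apart at the low end of both axes.

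Promoters of Tnc and Thbs2, the closest of the 15 pairs though not past adjustment by rank, are shown, with that of Sparc for comparison. They come from RefSeq, build GRCm38.p6, and run from 250 bases before to 50 bases after the annotated start, 5′ to 3′ on the gene's strand. The table held a promoter for 6 of the 10 named genes. Capitals mark matches, on either strand, to any of 4 motifs that do not overlap here: TATAAA, a core promoter element, GGGCGG, bound by Sp1, TGANTCA, bound by AP-1, and GGAATG, bound by TEAD factors.
Tnc (chr4:64046966-64047265, minus strand): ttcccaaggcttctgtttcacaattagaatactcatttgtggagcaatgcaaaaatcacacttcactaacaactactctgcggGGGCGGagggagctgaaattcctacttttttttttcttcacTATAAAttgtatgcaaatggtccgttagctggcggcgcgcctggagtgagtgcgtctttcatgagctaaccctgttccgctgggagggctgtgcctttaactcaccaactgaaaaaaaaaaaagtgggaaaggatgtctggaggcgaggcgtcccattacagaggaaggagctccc
Thbs2 (chr17:14694213-14694512, minus strand): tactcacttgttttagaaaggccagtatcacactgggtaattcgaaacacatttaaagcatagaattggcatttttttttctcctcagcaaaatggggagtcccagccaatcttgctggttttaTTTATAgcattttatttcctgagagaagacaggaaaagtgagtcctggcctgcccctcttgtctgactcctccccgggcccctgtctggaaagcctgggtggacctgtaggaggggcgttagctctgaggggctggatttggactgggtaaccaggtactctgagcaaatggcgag
Sparc (chr11:55420031-55420330, minus strand): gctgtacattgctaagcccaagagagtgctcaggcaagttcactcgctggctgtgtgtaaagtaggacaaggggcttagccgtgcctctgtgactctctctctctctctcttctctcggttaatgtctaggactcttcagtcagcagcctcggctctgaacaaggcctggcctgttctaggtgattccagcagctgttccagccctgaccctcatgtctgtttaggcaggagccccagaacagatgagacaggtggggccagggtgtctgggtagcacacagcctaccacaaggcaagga
The Tnc window held TATAAA, first base 126 bases before the start, and GGGCGG, 167 bases before it. The Thbs2 window held TATAAA on the opposite strand, also 126 bases before the start. The Sparc window held none of the 4. Of 27025 promoters of the same length, 14.2% held TATAAA, 35.9% GGGCGG, 7.9% TGANTCA and 14.7% GGAATG, so these matches are common, and they describe letters and no site of action.

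The genes most like each member over the 10 arrays, after subtracting group means, were picked by Pearson r from all tested named genes, and the values describe that choice. For Thbs1 the closest gene was Cd14, the co-receptor for lipopolysaccharide on monocytes (0.964), ahead of Frs3 (0.961, a dim feature with a mean of 4.23) and Adarb1 (0.943). The macrophage and monocyte marker list, which holds Cd14, did not follow Thbs1 throughout. Its mean was highest (12.51) on miR-132 replicate 4, where Thbs1 was lowest (13.34). On control replicate 2 it was the lowest control (11.58), where Thbs1 was the highest control (15.89). On miR-132 replicate 5, with the highest Thbs1 (16.22), it was 12.39. For Fn1 the closest genes included Ccr1, a chemokine receptor of monocytes and neutrophils (0.95), behind Rdh10, a retinol dehydrogenase (0.958). Tnc was closest to Dnajc12 (0.949), a dim feature, and to Pdgfrb, the platelet-derived growth factor receptor of fibroblasts and pericytes (0.939). Postn came with Slc10a3 (0.913), the small proteoglycan gene Bgn (0.911) and the microfibril gene Mfap4 (0.905). Sparc came with Sav1 (0.979), the endoplasmic reticulum calcium-binding protein gene Calu (0.97) and the mesenchymal transcription factor gene Prrx1 (0.966). The likenesses of Postn and Sparc rest on mostly tied values. Thbs2 was closest to Septin2 (0.97), Eln to Tmtc1 (0.973) and Lox to Cops6 (0.973).

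Genes that assemble the elastic fibre with Eln, Lox and Fbn1 were as little separated. Of 14 tested of 15 listed, 8 averaged lower and 6 higher with miR-132, and 0 had an unadjusted limma p under 0.05, with a median difference of -0.05. Over all tested genes, 53.8% averaged lower and 8.13% had such a p. Mfap4, a microfibril-associated protein that binds tropoelastin and fibrillin, averaged 8.27 ± 0.31 with miR-132 and 8.76 ± 0.52 in controls (SD, n = 5 each). Its log2 difference was -0.49 ± 0.26 (SE, limma, unadjusted p of 0.0862, adjusted p of 0.653). All 5 miR-132 arrays lay below its control mean. The difference was -0.72 (limma, unadjusted p of 0.00324, adjusted p of 0.633) without control replicate 2, the lowest control at 7.86. With any other single array left out, the unadjusted limma p was 0.0662 to 0.185. The difference was -0.23 with the spike-in covariate. The next smallest p values belonged to Fbln1, a fibulin of elastic fibres and basement membranes (-0.13), Fbn2, the fetal fibrillin (0.20, and -0.22 with the spike-in covariate), and Emilin1, an elastic fibre interface protein (-0.06). Of 6 tested genes of the lysyl oxidase family and procollagen processing, 2 averaged lower and 4 higher, with a median of 0.06 and 0 at an unadjusted p under 0.05. There the enhancer of procollagen cleavage Pcolce2 differed by 0.39, the lysyl oxidase relatives Loxl3 by 0.15 and Loxl4 by 0.06, and the procollagen proteinase gene Bmp1 by -0.19. These small values depended on single arrays: Pcolce2 was 0.17 without control replicate 4, Loxl3 and Loxl4 were 0.042 and 0.0025 without miR-132 replicate 5, and Bmp1 was -0.004 without miR-132 replicate 3. Fbn2 was likewise 0.0405 without miR-132 replicate 4 and 0.38 without miR-132 replicate 2.

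Of 17 tested of 22 listed other matricellular and clot proteins, 8 averaged lower and 9 higher, with a median of 0.04. Ccn2, a connective tissue growth factor gene induced by TGF-beta and by stretch, was the 1 gene with an unadjusted p under 0.05, where 2.44% of all genes lay under it in the higher direction. Its log2 signal was 6.29, 6.02, 5.89, 6.37 and 6.54 on miR-132 arrays 1 to 5, against 5.88, 5.98, 5.76, 5.83 and 6.07 on control arrays 1 to 5, a 1.25-fold higher mean that did not pass adjustment (limma, unadjusted p of 0.0283, adjusted p of 0.593). The groups overlapped through miR-132 replicates 2 and 3. Its unadjusted p was over 0.05 in several alternatives, up to 0.195 with the spike-in covariate. Tgfbi, a collagen-binding adhesion protein induced by TGF-beta, differed by -0.37, Ccn5 by 0.19 and Smoc1, a SPARC relative, by 0.13. Without miR-132 replicate 2, Tgfbi was -0.19 and Smoc1 0.081, and without miR-132 replicate 5 Ccn5 was 0.089.

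Receptors for these glycoproteins held the lowest values of the related lists. Of 14 tested, 7 averaged lower and 7 higher, with a median of -0.03, and 3 members of the list reached an unadjusted p under 0.05 in the lower direction, where 5.7% of all genes lay under it in that direction. Cd44, a receptor of hyaluronan that also binds osteopontin, read 14.88, 13.90, 15.59, 14.06 and 15.49 on miR-132 arrays 1 to 5, against 15.93, 16.35, 15.61, 15.50 and 16.55 on control arrays 1 to 5. Replicate 3 with miR-132 lay within the control range, and replicate 5 (15.49) lay just below its lowest value (15.50). The mean was 2.30-fold lower with miR-132 (log2 difference -1.20 ± 0.37 SE, limma adjusted p of 0.593). Sdc1, a heparan sulfate proteoglycan of keratinocytes, read 7.94, 7.66, 8.82, 7.77 and 8.05 on miR-132 arrays 1 to 5, against 9.16, 9.17, 8.38, 8.71 and 8.87 on control arrays 1 to 5, with the overlap again through miR-132 replicate 3. Its difference was -0.81 ± 0.24 (SE, limma adjusted p of 0.593, and 0.069 without miR-132 replicate 3). Sdc4, which acts with integrins in adhesion to fibronectin, differed by -0.49 ± 0.19 (SE, limma adjusted p of 0.593). Itgav, the alpha subunit of the RGD-binding integrins, differed by -0.46 ± 0.21 (SE, unadjusted limma p of 0.0562). None of these passed adjustment, and the direction of all 4 held in the 19 alternatives, some of which leave the difference itself unchanged. Cd44 was -1.85 with the spike-in covariate. The count of 3 did not hold in every fit. The unadjusted limma p of Sdc4 was 0.0514 after quantile normalization, 0.0611 with the replicate number as a block and up to 0.0646 when single arrays were left out. Without miR-132 replicates 2 and 5 together it was 0.132, with a difference of -0.351.

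The labelled tissue was checked against its markers, and the marker lists stood beside the members as follows. Krt5 and Krt14, keratins of basal epidermis, were at the 19.93 limit on every control array, and the collagen gene Col1a1 averaged 17.2 with miR-132 and 17.4 in controls. Of the markers with a 1-gene feature, the level filter left out 1, a neutrophil marker. Fibroblast markers (9 tested of 10) had a mean log2 level of 13.10 to 14.09 in the miR-132 group, against 13.54 to 14.02 in controls. On miR-132 replicates 2 and 3 it was 13.21 and 13.10, below every other array, beside the low Thbs2, Sparc and Tnc values there. On control replicate 2, with the lowest Tnc of all arrays (15.18) and the lowest control Thbs2 (14.10), it was 13.74. Control replicate 4 had the lowest control level, 13.54, with Tnc at 17.01 and Thbs2 at 14.81. Macrophage and monocyte markers (10 of 10) spanned 11.41 to 12.51 in the miR-132 group, against 11.58 to 12.46 in controls. Neutrophil markers (7 of 8) spanned 10.27 to 10.79, against 10.04 to 11.75, and contractile cell markers (6 of 6) 7.94 to 8.99, against 8.31 to 8.94. Endothelial markers (6 of 7) spanned 6.52 to 7.66 in the miR-132 group, against 6.96 to 7.62 in controls. Wound-edge keratinocyte markers (6 of 8) spanned 13.79 to 15.45 in the miR-132 group, against 15.01 to 15.62 in controls, and basal keratinocyte markers (8 of 8) 10.82 to 11.40, against 11.23 to 11.82. Of the 6 wound-edge markers, 5 averaged lower with miR-132, 4 of them at an unadjusted limma p under 0.05 and 0 after adjustment, with a median difference of -1.05. Over all tested genes, 53.8% averaged lower and 5.7% had such a p in the lower direction. The lower markers included Krt17 (-1.45) and Sprr1b (-1.41), keratin and cornified envelope genes, while Krt6a and Krt6b had no feature. Of the 6 markers 2 stood at the 19.93 limit, Krt16 on all 10 arrays and S100a8, also a listed neutrophil marker, on all but miR-132 replicate 5. All 8 basal markers averaged lower, 1 at an unadjusted limma p under 0.05. S100a8, Krt5 and Krt14 were at the limit on every control array, so they could not average higher with miR-132. The wound-edge and basal marker values lay beside the lower average Cd44, Sdc1 and Sdc4, and their part in those differences was not tested. Adipocyte markers (7 of 8) spanned 7.64 to 10.48 in the miR-132 group, against 7.62 to 9.77 in controls, and muscle markers (8 of 8) 10.19 to 13.96, against 10.46 to 13.55. Markers of other tissues also leaned to 1 side. All 8 muscle markers averaged lower (list difference -0.449) and all 7 adipocyte markers higher (0.462). Of the neutrophil markers 6 of 7 averaged lower, and of the fibroblast markers 7 of 9. Of these muscle, adipocyte, neutrophil and fibroblast markers, 0 had an unadjusted limma p under 0.05. The part of cell makeup in the members' values was not tested. The central 80% of an array's signal spanned the least on miR-132 replicates 2 and 5, at 4.41 and 4.63, against 4.88 to 4.92 on the other miR-132 arrays and 4.81 to 5.03 in controls. These 2 arrays were the lowest and the highest for Fn1. Hybridisation spike-in controls averaged 10.57 to 10.98 in the miR-132 group, against 10.43 to 10.61 in controls.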

How the data were processed

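Per the labels, 150 ng of total RNA per sample was labelled for an Affymetrix mouse Clariom D array. The deposited values are RMA summaries made by the authors with Affymetrix Expression Console 1.4, per the submitters' processing notes, and they were taken as log2 signal from their range (1.77 to 19.93), since no source states the scale. Replicate numbers come from the titles. All 10 columns matched a sample, 0 pairs of arrays were identical, and no source used here gives the build behind the features. The platform annotation gave 30604 of 72688 features 1 gene and 2146 several, which were not named, and 39938 are unnamed here. Symbols of 827 features were updated with the GRCm38.p6 gene table. For genes with several features the brightest by mean was kept, and genes with a mean above 4.17, the median of all feature means, were tested.

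Differences (miR-132 minus control) come from limma 3.58.1 in R 4.3.3, with an intensity trend, no covariate and two-sided Benjamini-Hochberg adjusted p over all tested genes, threshold 0.05. The code was tested on simulated data. The members and lists were chosen with earlier results of these data known. Named genes are all members, the 4 genes of each related list with the smallest unadjusted p, the 3 genes most correlated with each member (not all printed) and the first 3 tested markers of a list. Same-numbered samples of the groups had correlated deviations of -0.03 to 0.16, not all above 0.1, so the numbers were not taken as pairs. With 5 arrays per group, precision is limited by their number.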

Additional observations from a re-analysis of the deposited data

Results flagged for a closer look

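In 34 groups of 5 arrays (8 members and 9 marker lists, each in both treatments), 4 single values stood apart from the other 4 arrays by more than 0.71 of the group's range, a gap that chance gives in about 1 of 20 groups where values are not tied. Thbs2 was 14.10 on control replicate 2, below the other controls at 14.73 to 14.81. Postn was 19.45 on miR-132 replicate 3 and 19.22 on control replicate 2, in each case beside 4 arrays at the same 19.54. Sparc was 16.89 on control replicate 4, beside 4 control arrays at 16.99. In these 3 groups the other 4 arrays are tied, so any other value stands apart by the whole range and the chance rate of 1 in 20 does not apply.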

How the results depend on the processing

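No member passed an adjusted p of 0.05, or an unadjusted one, in any of the 19 alternatives, where the members' lowest adjusted p was 0.646 and lowest unadjusted p 0.0946. Of 152 recomputed member differences 22 changed sign, and of 304 for the 16 named related genes 3 did. Both totals include fits that leave the difference itself unchanged, named at the end. Signs turned after quantile normalization for Fn1 (0.0584), Sparc (0.0057) and Eln (0.136). They turned with array weights for Fn1 (0.205), Thbs2 (0.043) and Bmp1 (0.0246), and with median centring for Eln (0.041). With the hybridisation controls as a covariate, which is partly confounded with group, they turned for Eln (0.198), Lox (-0.143), Fbn2 (-0.219) and Loxl4 (-0.0311). Leaving out single arrays gave -0.335 to 0.155 for Fn1, -0.436 to 0.0815 for Thbs2, -0.018 to 0.064 for Postn, -0.26 to 0.186 for Eln and -0.028 to 0.435 for Lox. The cause of these turns was not tested. Over all genes, 0 passed adjustment, and 0 to 55 when single arrays were left out, the 55 without miR-132 replicate 3. An unadjusted p under 0.05 was reached by 1412 genes, 2463 without miR-132 replicate 3, 933 without control replicate 5 and 2586 of 30142 with no level filter. With the replicate number as a block, the count of genes past adjustment was 0 and of members 0, and 1258 genes lay under the unadjusted threshold. The mean difference over the members stayed at -0.0983, which this balanced block cannot change. Of 5 arrays with miR-132, 1 correlated best with the control array of its own number. The fit without miR-132 replicates 2 and 5 turned no sign. The fits with no level filter, without the intensity trend and with the replicate block could not turn one, since they leave the difference itself unchanged. The same holds for the members with the mean of all features of a gene, as each member has 1 feature. That mean turned no sign of a named related gene.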
